A study of Mus musculus with 4 samples.

Results

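The clustered replication-dependent histone genes supply the core histones H2A, H2B, H3 and H4 and the linker histone H1 that package newly made DNA. They were taken here as every noncontrol probe of the array whose gene name in the scanner files begins with Hist1h, Hist2h or Hist3h. This gave 44 probes of 41174, under 35 of the 28090 gene names in the files, each present as 1 spot. The Hist1 cluster holds 31 of the probes, the Hist2 cluster 9 and the Hist3 cluster 4. By histone class there were 8 probes for H1, 16 for H2A, 11 for H2B, 3 for H3 and 6 for H4.

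Expression was measured in induced hepatocyte-like cells (iHep cells) of the C57BL/6 mouse strain, made from cells that the labels call MDFs, an abbreviation they do not expand. The groups were 3D culture and 2D culture, and each came from the same 2 independent experiments, iHep-1 and iHep-2, with 1 array per culture and experiment, 4 arrays in all. The 2D arrays are titled iHep-1+ and iHep-2+, and the labels do not say what the plus sign marks, so it cannot be told apart from 2D culture. The study asked how 2D and 3D cultures of these cells differ in gene expression; beyond the independent experiments nothing is stated about how separate the cultures were, and 2 arrays per group limit the precision of every value below.

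Replication-dependent histone genes are transcribed in S phase, when DNA is copied, and their messages fall away when replication stops. Their mRNAs end in a conserved stem-loop in place of a poly(A) tail, and the stem-loop binding protein SLBP carries them through processing, export and translation. Some of these genes also give polyadenylated transcripts, which have been described in differentiated and non-dividing cells. The labelling kit named in the labels starts its first strand at poly(A), so a histone message with only a stem-loop end is a poor template for it, and the signals below cannot be divided between the 2 kinds of message. Paralogs within a class encode nearly the same protein, and a probe in the coding part of 1 gene can also bind the mRNA of another.

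The probes themselves show both limits. The H4 probes below share 29 bases, in capitals, and so may fail to separate 3 gene names of 2 chromosomes. Positions are mm9, as the scanner files give them: Hist1h4d at chr13:23673665-23673724 (plus strand), Hist1h4f at chr13:23643249-23643308 (minus strand) and Hist2h4 at chr3:96066953-96067012 (minus strand).
Hist1h4d: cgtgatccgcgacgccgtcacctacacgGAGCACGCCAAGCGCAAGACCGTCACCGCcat
Hist1h4f: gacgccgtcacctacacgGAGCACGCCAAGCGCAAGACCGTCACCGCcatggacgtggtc
Hist2h4: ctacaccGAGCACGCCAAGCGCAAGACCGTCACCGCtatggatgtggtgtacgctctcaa

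An H2A pair begins with the same 44 bases, in capitals: Hist1h2aa at chr13:24026659-24026718 and the probe A_52_P165633 of Hist1h2af at chr13:23626108-23626167, both on the plus strand.
Hist1h2aa: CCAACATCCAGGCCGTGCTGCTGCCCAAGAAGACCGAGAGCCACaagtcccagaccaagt
Hist1h2af: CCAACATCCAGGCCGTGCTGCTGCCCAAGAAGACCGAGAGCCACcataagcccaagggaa

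The H2B probes below have a run of 26 bases in common, in capitals, and the first pair matched along the whole probe except at 2 positions. They lie at chr13:22127928-22127987 on the plus strand (Hist1h2bk), chr13:21814139-21814198 on the plus strand (Hist1h2bm) and chr11:58767697-58767756 on the minus strand (Hist3h2bb).
Hist1h2bk: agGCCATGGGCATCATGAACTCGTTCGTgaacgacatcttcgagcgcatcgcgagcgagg
Hist1h2bm: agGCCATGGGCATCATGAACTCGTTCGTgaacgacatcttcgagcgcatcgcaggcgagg
Hist3h2bb: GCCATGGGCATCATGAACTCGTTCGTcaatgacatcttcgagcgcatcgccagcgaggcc

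A few probes instead hold letters of the stem-loop end of the message. A probe wholly before or wholly past the stem-loop holds none of them, so the search below cannot place it. The number of probes that read past the stem-loop is therefore not known. The consensus letters of the stem-loop, those in capitals in the Hist1h3a line below, were searched on either strand. They were whole in 1 of the 44 histone probes, and that probe was also the 1 match among all 41174 (0.00243%). Counting probes whose end cuts the stem-loop after at least 10 letters, there were 3 histone probes, again all of the matches on the array (0.00729%). Windows of 30 bases are shown with the stem-loop letters in capitals. The Hist1h2ab probe ends with the first 11 letters, so most of it lies before the stem-loop. The Hist1h2ae probe begins with the last 12 letters, so most of it lies past the stem-loop. The probes lie at chr13:23662489-23662548 (Hist1h2ae, minus strand), chr13:23853756-23853815 (Hist1h3a, minus strand) and chr13:23843392-23843451 (Hist1h2ab, plus strand).
Hist1h2ae: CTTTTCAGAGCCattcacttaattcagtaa
Hist1h3a: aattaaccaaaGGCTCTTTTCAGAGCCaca
Hist1h2ab: gaaagttaaccaaaacaaaGGCTCTTTTCA

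The poly(A) signal letters AATAAA stood on the probe strand in 2 histone probes (4.55%), against 4.78% of all probes, so they were not commoner in the histone probes. A probe without these letters does not show whether its gene has them elsewhere. On either strand they were in 3 histone probes (6.82%), against 8.8% of all probes. The windows below mark AATAAA in capitals, for Hist1h2bp at chr13:21880997-21881050 and Hist2h2bb at chr3:96082754-96082813, both on the plus strand.
Hist1h2bp: atcctgaaaaagagtatttAATAAAtctat
Hist2h2bb: gttgtcagtttgAATAAAgacagagaaact

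Signal was present for nearly the whole family on these arrays. Of the 44 probes, 37 were well above background on all 4 arrays, and 42 passed the filter for testing, which asks for at least 2 of 4 arrays well above background. Hist1h2be, an H2B gene, was well above background only in 3D of iHep-1, and Hist1h2al, matched by name to an H2A pseudogene, on no array. Neither is given a fold. Among all probes, 24468 of 41174 were tested, with 23061 to 24414 probes well above background in 3D and 23746 to 24379 in 2D. The 75th percentile of the processed signal, to which each array was scaled, was 594 and 399 intensity units in 3D of iHep-1 and iHep-2, against 523 and 616 in 2D of the same experiments, so 3D of iHep-2 was the dimmest array. Levels below are log2 units relative to that percentile, and differences are 3D minus 2D in log2 units. In RNA from a whole culture, fewer cells in S phase and less histone RNA per cell cannot be told apart.

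The cells carried the markers of their label. Of the hepatocyte markers, 8 of 8 on the array were well above background on all 4 arrays, with a summed signal of 534468 and 707515 intensity units in 3D and 528040 and 591340 in 2D. The sums do not show single markers, some of which differed widely and in opposite directions. Afp was at 1113 and 103313 in 3D, against 76831 and 186093 in 2D. Apoa2 was at 7139 and 39200 in 3D, against 642 and 178 in 2D. Of 9 fibroblast or mesenchymal markers, 2 were well above background on every array and 4 on none, with sums of 3041 to 4516 in 3D and 2668 to 3030 in 2D. Of 4 endothelial markers, 3 were well above background on no array, and Cdh5 was so on 2 arrays, with 9.20 and 10.5 intensity units in 3D and 55.2 and 44.2 in 2D. The endothelial sums were 16.2 and 17.3 in 3D and 62.3 and 53.9 in 2D. Of 4 blood markers, Hbb-b1 and Cd68 were well above background on all 4 arrays, Hba-a1 on 2 and Ptprc on none, with sums of 126 and 68.2 in 3D and 61.2 and 79.8 in 2D. Biliary markers (4 of 4 on all arrays) summed to 14973 and 11873 in 3D and 8378 and 28716 in 2D. The part of these other cells in the histone values was not tested.

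No histone probe passed the test between cultures. By limma with Benjamini-Hochberg adjustment over all tested probes, 0 of 42 were higher and 0 lower in 3D, and the same was true of all tested probes (0.0% in each direction). The smallest adjusted p among the histone probes was 0.695, for Hist1h2ab and the Hist1h2af probe A_52_P498210. At an unadjusted p under 0.05, again 0 histone probes were higher and 0 lower, against 3.86% and 3.16% of all probes. With the experiment as a block, since replicate numbers mark shared experiments, 0 histone probes and 0.0% of all probes were called in either direction, and the smallest adjusted p in the family was 0.299, for Hist1h4i. At an unadjusted p under 0.05 the blocked limma fit had 5 histone probes lower and 1 higher (11.9% and 2.4%), against 5.33% and 8.09% of all probes. The 5 lower were Hist1h4i, the Hist1h1e probe A_52_P67892 and the Hist1h4d, Hist1h4f and Hist2h4 probes printed above. Those printed probes share sequence and cannot be counted as separate genes, so the share of 11.9% counts them more than once. All differences between cultures below are therefore descriptions of 2 experiments.

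By sign, the family leaned towards lower signal in 3D. Of 42 probes, 22 were lower in 3D in both experiments (52.4%, against 33.8% of all probes), 4 showed the opposite sign in both (9.5%, against 31.8%) and 16 went opposite ways (38.1%, against 34.4%). The H2B and H4 probes printed above were among the 22, and they share sequence, so the 52.4% counts some readings more than once. The count of 22 was 13 with no scaling between arrays and 39 with spike-in scaling. The lean lay mostly in iHep-2. There 36 of 42 probes were lower in 3D (85.7%), against 49.0% of all probes, while in iHep-1 the count was 24 of 42 (57.1%), against 52.9%. The median difference over the tested histone probes was -0.06 in iHep-1 and -0.45 in iHep-2, against -0.03 and 0.02 over all probes. Over all 44 probes, tested or not, the medians were -0.06 and -0.46.

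Large differences were few. In both experiments, 1 probe was at least 1 log2 unit lower in 3D (2.4%, against 1.95% of all probes), which is near the background, and 0 were at least 1 unit higher (against 3.77%). In iHep-2, 9 probes were at least 1 unit lower (21.4%, against 8.05%), and in iHep-1, 2 were (4.8%, against 3.8%). No histone probe was at least 1 unit higher in 3D in either experiment, against 6.94% of all probes in iHep-1 and 11.4% in iHep-2. Both 3D arrays lay below both 2D arrays for 6 probes (14.3%, against 22.0% of all probes), and above for 1 (2.4%, against 19.1%).

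**Figure D1:**
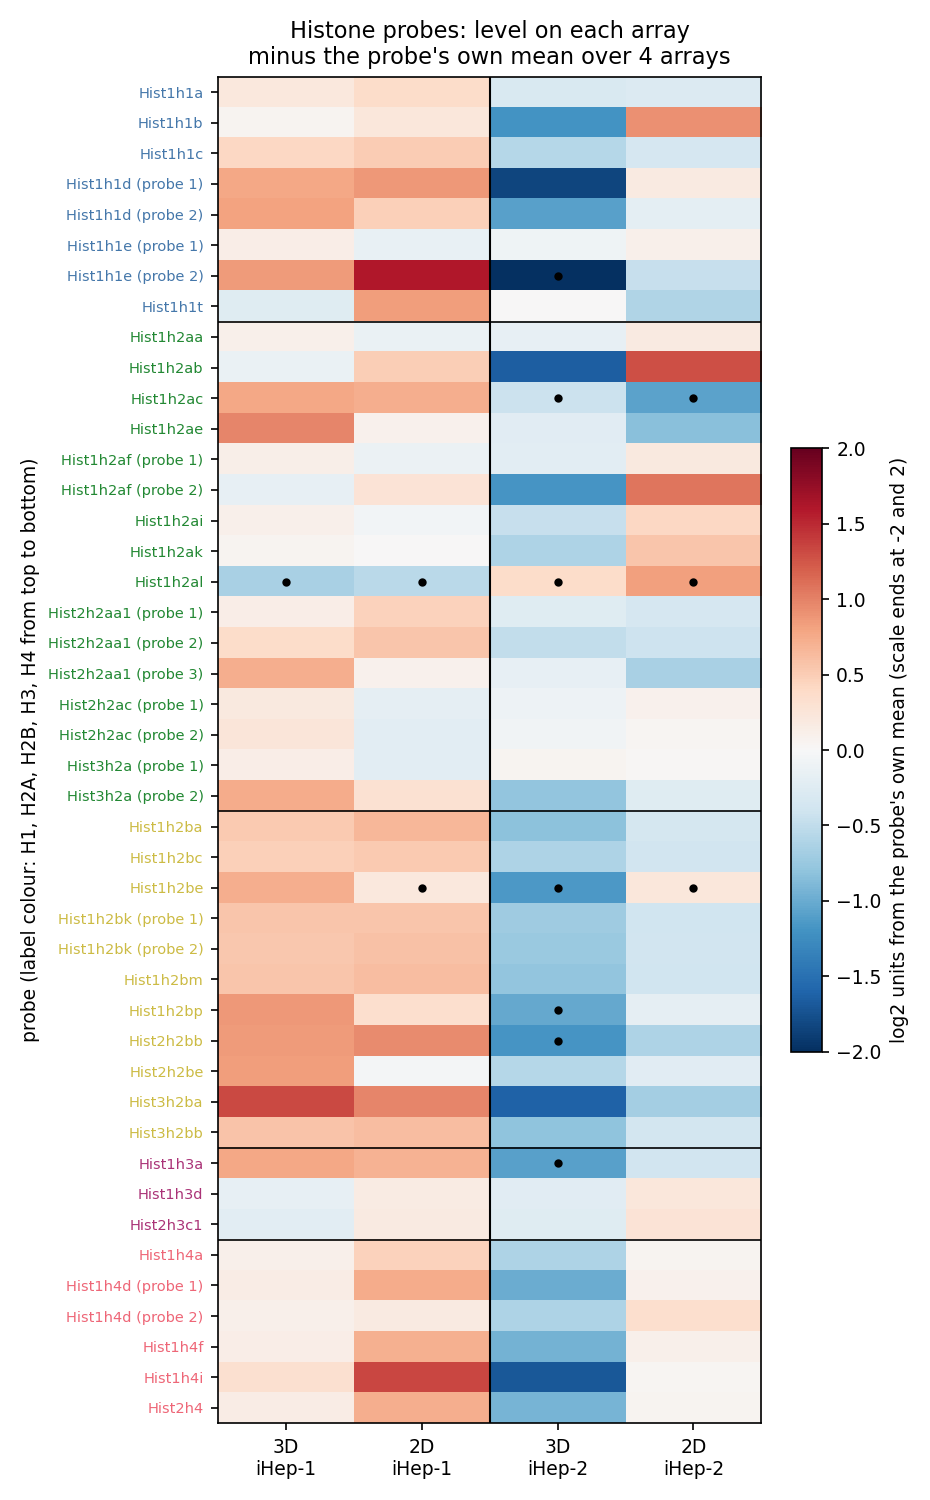
Each row is 1 of the 44 histone probes and each column 1 array, in the order 3D and 2D of iHep-1 and then 3D and 2D of iHep-2. Colour is the log2 level minus the probe's own mean over the 4 arrays, ending at -2 and 2, and a dot marks a value not well above background. The column of 3D iHep-2 is blue for nearly every class, and most H2B rows are blue in both iHep-2 columns and red in both iHep-1 columns.

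The H1 genes encode linker histones, which bind DNA between nucleosomes. Their 8 probes had medians of -0.13 in iHep-1 and -0.56 in iHep-2, with 5 lower in 3D in both experiments and 0 higher in both. Hist1h1b stood at -2.27 and -3.53 in 3D of iHep-1 and iHep-2, against -2.11 and -1.41 in 2D. Both 3D arrays were below both 2D arrays, with differences of -0.16 in iHep-1 and -2.12 in iHep-2. The mean difference was -1.14 with a standard error of 0.57 (limma, adjusted p = 0.707). Hist1h1c, a widely expressed linker histone, showed little difference between cultures. It was at 5.76 and 4.79 in 3D, against 5.86 and 5.01 in 2D, a difference of -0.10 and -0.23. Hist1h1a differed by -0.16 and -0.03.

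Probes of 1 linker histone gene did not give 1 answer. The Hist1h1d probe A_51_P501260 was at 0.73 and -1.87 in 3D of iHep-1 and iHep-2, against 0.83 and 0.15 in 2D, so 3D of iHep-2 stood alone. The other Hist1h1d probe, which starts 1751 bases away, differed by 0.34 in iHep-1 and -0.90 in iHep-2. The Hist1h1e probe A_52_P67892 was at -2.41 and -5.24 in 3D, against -1.66 and -3.71 in 2D, and its 3D value in iHep-2 was not well above background. The other Hist1h1e probe, with a start 2320 bases away, differed by 0.29 and -0.20, so the pair disagreed in sign in iHep-1 and in size in iHep-2. Hist1h1t, the testis linker histone, was at -5.72 and -5.46 in 3D, against -4.63 and -6.07 in 2D, and went opposite ways in the experiments. In iHep-2 its intensities before scaling were 9.07 in 3D and 9.17 in 2D, close to background. Of 4 germ cell markers, 2 were well above background on all arrays, with sums of 182 and 118 intensity units in 3D and 173 and 157 in 2D, and their part in the Hist1h1t value was not tested.

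H2A probes went both ways between cultures. The 15 tested probes had medians of 0.23 in iHep-1 and -0.19 in iHep-2. Relative to the median of all probes, these signs held with normexp background correction, quantile normalization and the authors' series table. Shifting all probes of an array together cannot change them. The class held all 4 probes of the family with a positive difference in both experiments, beside 3 with a negative one in both. The probes higher in both were Hist1h2ac, Hist1h2ae, 1 of 3 probes of Hist2h2aa1 and 1 of 2 probes of Hist3h2a. Hist1h2ac differed by 0.04 and 0.65 but was not well above background on either array of iHep-2. Hist1h2ae, whose probe begins inside the stem-loop and lies mostly past it, stood at -2.63 and -3.84 in 3D, against -3.53 and -4.45 in 2D. The 3D array was higher within each experiment, by 0.90 and 0.61, but the groups overlapped because iHep-2 was lower than iHep-1 in both cultures. The mean difference was 0.76 with a standard error of 0.60 (limma, adjusted p = 0.774).

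Hist1h2ab, whose probe lies mostly before the stem-loop and ends inside it, went the other way. The Hist1h2ae and Hist1h2ab probes thus read opposite sides of the stem-loop, and the part of this in their values was not tested. Hist1h2ab stood at -3.30 and -4.82 in 3D, against -2.67 and -1.89 in 2D, so the groups did not overlap. The differences were -0.63 in iHep-1 and -2.93 in iHep-2, and no other histone probe reached a value as low as the one in iHep-2. The mean difference of -1.78 had a standard error of 0.66 (limma, adjusted p = 0.695). The Hist1h2af probe A_52_P498210 followed the same order of arrays, with 1.82 and 0.79 in 3D, against 2.25 and 3.05 in 2D, and differences of -0.44 and -2.26. Hist1h2ak and Hist1h2ai, whose probes share runs of 40 and 26 bases with that Hist1h2af probe, were near equal between cultures in iHep-1 (0.06 and 0.15) and lower in 3D in iHep-2 (-1.17 and -0.89).

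The second Hist1h2af probe, the one printed above beside Hist1h2aa, gave another picture. Hist1h2aa, the testis H2A gene, was at 6.90 and 6.63 in 3D, against 6.66 and 6.97 in 2D, and this Hist1h2af probe at 6.95 and 6.62 in 3D, against 6.72 and 7.03 in 2D. The differences were 0.24 and -0.34 for Hist1h2aa and 0.23 and -0.41 for Hist1h2af, so these readings could not be separated. Both probes also share runs of 29 bases with the probe of H2afj, a replication-independent H2A gene outside the family, named here for that run, which differed by 0.31 and -0.07. A further probe with runs of 26 and 28 bases in common with them, A_52_P130490, which the files name by a transcript only, differed by -0.35 and -2.69. Probes that share sequence with this Hist1h2af probe thus did not all give its values, and the probes of Hist1h2af, 308 bases apart, did not give 1 answer in iHep-2.

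The Hist2 and Hist3 probes for H2A had no common direction between cultures. The probes named Hist2h2ac share 51 bases with each other, and they differed by 0.38 and 0.45 in iHep-1 and by -0.19 and -0.12 in iHep-2. The files list transcripts of H2ac18, H2ac19 and H2ac20 for the probe A_52_P340480, and H2ac18 is the current name of Hist2h2aa1. These values may therefore not be readings of Hist2h2ac alone. The 3 probes of Hist2h2aa1 ranged from -0.33 to 0.66 in iHep-1 and from -0.07 to 0.48 in iHep-2, and the upper end in both was the probe A_52_P64609, with a mean difference of 0.57. The Hist3h2a probe A_52_P184352 was the 1 histone probe with both 3D arrays above both 2D arrays, at 4.18 and 4.11 in 3D, against 3.85 and 4.07 in 2D. Its mean difference of 0.18 had a standard error of 0.23 (limma, adjusted p = 0.850). The other Hist3h2a probe differed by 0.45 and -0.55.

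H2B partners H2A in the nucleosome, and its 10 tested probes had medians of -0.04 in iHep-1 and -0.41 in iHep-2. None had a positive difference in both experiments and 6 had a negative one in both, with differences in iHep-1 from -0.15 to -0.04. Hist1h2bc stood at 4.84 and 3.74 in 3D, against 4.88 and 3.97 in 2D. The Hist1h2bk probe A_52_P388224 stood at 4.60 and 3.33 in 3D, against 4.64 and 3.68 in 2D. For these probes the experiment separated the arrays and the culture did not.

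The H2B probes printed above were as alike, Hist1h2bm with differences of -0.07 and -0.40 and Hist3h2bb with -0.05 and -0.43. The second Hist1h2bk probe, 66 bases away, differed by 0.01 and -0.32, and Hist1h2ba, an H2B gene known from testis, by -0.15 and -0.46. Hist2h2be, known in mouse as an H2B variant of olfactory neurons, was at 0.87 and -0.54 in 3D, against 0.00 and -0.19 in 2D, a difference of 0.87 in iHep-1 and -0.34 in iHep-2. The probes carrying AATAAA did not share a direction in iHep-1. Hist1h2bp differed by 0.53 and -0.84 and Hist2h2bb by -0.10 and -0.56, and both were not well above background in 3D of iHep-2. Hist3h2ba stood at 1.89 and -1.06 in 3D, against 1.53 and -0.11 in 2D, with 3D of iHep-2 lowest.

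H3 and H4 form the tetramer at the centre of the nucleosome. Of the 3 H3 probes, Hist1h3d stood at 4.91 and 4.86 in 3D, against 5.25 and 5.30 in 2D, and Hist2h3c1 at 5.49 and 5.45 in 3D, against 5.87 and 5.98 in 2D. In both, the arrays of a culture lay close together and the groups did not overlap. The mean differences were -0.39 and -0.45, each with a standard error of 0.21 (limma, adjusted p = 0.710 and 0.702). The experiments gave similar differences, -0.34 and -0.44 for Hist1h3d and -0.38 and -0.52 for Hist2h3c1. Both probes list several RefSeq transcripts of H3 genes. Hist1h3a, whose probe holds the whole stem-loop, differed by 0.07 and -0.69 and was not well above background in 3D of iHep-2.

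H4 was the class that was lower throughout. All 6 probes were lower in 3D in both experiments, with medians of -0.58 in iHep-1 and -1.01 in iHep-2. In each experiment all 6 were below the median of all probes. This held with normexp background correction, quantile normalization and the authors' series table, and shifting all probes of an array together cannot change it. With no scaling, 5 of the 6 were below 0 in iHep-1. Hist1h4i stood at 2.23 and 0.21 in 3D, against 3.25 and 1.96 in 2D. It was the 1 histone probe at least 1 unit lower in both experiments, with differences of -1.02 and -1.75, a mean difference of -1.38 and a standard error of 0.91 (limma, adjusted p = 0.740, and 0.299 with the experiment as a block). In the scanner files its mm9 position spans only chr13:22132449-22132455, shorter than the probe.

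The H4 probes that share the 29 bases printed above gave nearly the same values. Hist1h4d differed by -0.59 and -1.08, Hist1h4f by -0.58 and -1.04 and Hist2h4 by -0.57 and -0.97. Hist1h4f, for example, stood at 4.55 and 3.47 in 3D, against 5.13 and 4.51 in 2D, and the groups overlapped because 3D of iHep-1 was above 2D of iHep-2. These probes therefore cannot be counted as separate genes. Hist1h4a differed by -0.36 and -0.68. The second Hist1h4d probe, 158 bases from the first, differed by -0.08 and -0.95, and both its 3D arrays (0.54 and -0.17) were below both 2D arrays (0.62 and 0.77).

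**Figure D2:**
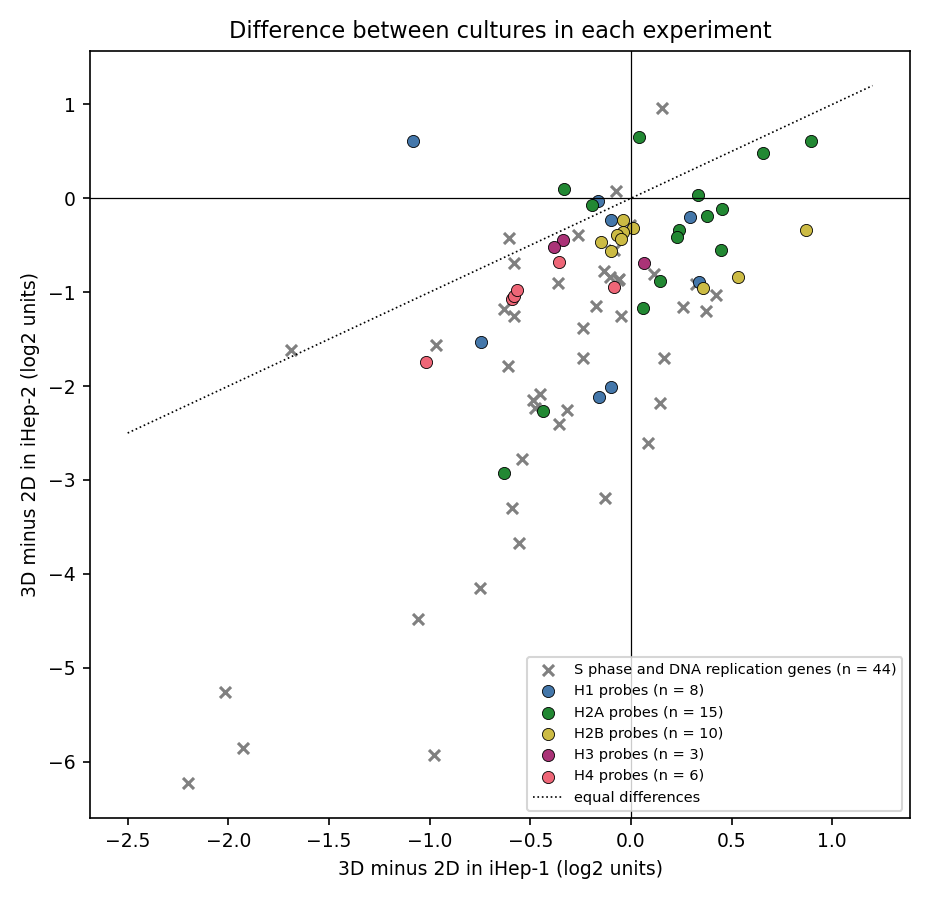
Each point is a tested histone probe, coloured by class, or a gene of the S phase list (grey cross), with the 3D minus 2D difference in log2 units in iHep-1 on the x axis and in iHep-2 on the y axis. The dotted line marks equal differences. Most histone points lie below 0 on the y axis and scatter about 0 on the x axis, the 6 H4 points lie below 0 on both (5 of 6 in iHep-1 with no scaling), and the S phase genes reach -6.23 on the y axis, where the lowest histone probe is at -2.93.

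Probes with shared sequence and probes with none found had similar median differences. A probe was counted as sharing when it has a run of at least 20 bases in common with a probe of another gene name. It was also counted when the files list more than 1 RefSeq transcript for it. By these rules 18 probes shared, and in 26 no sharing was found. The 26 include the Hist2h2ac probe A_52_P257377, which has 51 bases in common with the other probe of that gene name. The rest may thus also read paralogs, and the part of this in their values was not tested. The 18 sharing probes were rich in G and C (55% to 75%, median 60%), as coding parts of histone genes are, against 35% to 60% (median 42.5%) in the rest. Median differences were -0.06 and -0.48 in the sharing probes, against -0.07 and -0.40 in the 24 tested probes of the rest. In each set 11 probes were lower in 3D in both experiments. By cluster, the medians were -0.08 and -0.68 for the 29 tested Hist1 probes, -0.10 and -0.19 for the 9 Hist2 probes and 0.35 and -0.49 for the 4 Hist3 probes.

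Genes with a job in S phase had larger median differences than the histone probes in each experiment. The lists below were chosen with earlier results of these data known and describe, with no test of the list. On a list of 45 S phase and DNA replication genes, 44 were tested, 0 passed the adjusted threshold in either direction, 34 had negative differences in both experiments and 1 positive. The medians were -0.29 in iHep-1 and -1.47 in iHep-2, against -0.06 and -0.45 for the histone probes. Without 2D of iHep-2 the medians of the mean difference were in the other order, at -0.48 for the S phase list and -0.60 for the histone probes. With all 4 arrays the S phase median was -0.91. Leaving that array out set both 3D arrays against 2D of iHep-1 alone, so the difference between experiments entered these medians. Within iHep-1, a complete pair of arrays, the order was the one given above. Mki67, a marker of cycling cells, stood at -1.05 and -2.66 in 3D, against 0.97 and 2.61 in 2D, which is a difference of -2.02 and -5.26. Ccna2, the cyclin of S phase and G2, differed by -2.20 and -6.23. Uhrf1, which keeps DNA methylation through replication, differed by -1.93 and -5.86, and Tyms, which makes thymidylate, by -0.97 and -1.56. Within each of these genes both 3D arrays were below both 2D arrays.

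Not every S phase gene followed Mki67. Pcna, the sliding clamp of DNA polymerases, stood at 3.34 and 3.22 in 3D, against 3.39 and 4.48 in 2D, so in iHep-1 it differed by -0.05, much as the median histone probe did, and in iHep-2 by -1.25. Ccne2, the cyclin of S phase entry, differed by -0.61 and -1.79. Cdkn1a, the inhibitor of cyclin-dependent kinases, differed by 1.38 and 1.39, the same way and by the same amount in both experiments (limma, adjusted p = 0.695).

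The machinery that makes and handles histone mRNA differed by about as much as the histone probes. Of 23 listed genes for histone transcription and 3′ processing, 18 were tested, 9 were lower in 3D in both experiments and 4 higher in both, with medians of -0.04 and -0.28. Slbp, the stem-loop binding protein, stood at 1.76 and 1.60 in 3D, against 1.87 and 2.46 in 2D, a difference of -0.11 and -0.85. Casp8ap2, a factor of the histone locus body, differed by -0.35 and -1.07. Snrpg and Snrpe, Sm proteins shared by the U7 particle that cuts histone mRNA and by spliceosomal particles, differed by -0.51 and -0.79 and by -0.19 and -0.80. None of the 18 passed the adjusted threshold.

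Histone chaperones carry the proteins to DNA, and 16 of 20 listed genes were tested. Medians were -0.15 and -0.37, with 10 genes lower in 3D in both experiments, 2 higher in both and 0 past the adjusted threshold. Asf1b, the ASF1 form of dividing cells, differed by -1.13 and -3.70. Chaf1b, a subunit of the chromatin assembly factor that works at replication forks, differed by -0.48 and -2.15. Hat1, which acetylates new H4, differed by -0.16 and -1.10, and Nap1l1, a carrier of H2A and H2B, by -0.92 and -0.19.

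The other comparison is a list of replication-independent histone genes, taken as those whose mRNA is polyadenylated and made outside S phase. H2afx, given below, is on the list but meets this only in part. Of 15 listed, 14 were on the array and 12 were tested, with 8 lower in 3D in both experiments, 0 higher in both and 0 past the adjusted threshold. Their medians, -0.26 and -0.35, lay closer together across the experiments than those of the clustered genes, and that contrast was not tested. H3f3b, an H3.3 gene, stood at 6.70 and 6.80 in 3D, against 7.16 and 7.17 in 2D, a difference of -0.46 and -0.37. H2afz, the H2A.Z gene, differed by -0.64 and -0.58, and H1f0, the linker histone of non-dividing cells, by -0.26 and -0.38 with its brightest probe. The other H1f0 probes, both well above background on all arrays, differed by more, with means of -0.73 and -0.68, against -0.32 for the brightest. H2afx, whose gene gives both stem-loop and polyadenylated messages, differed by -0.75 and -1.41. Cenpa, the H3 variant of centromeres, differed by -0.76 and -2.53.

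**Figure D3:**
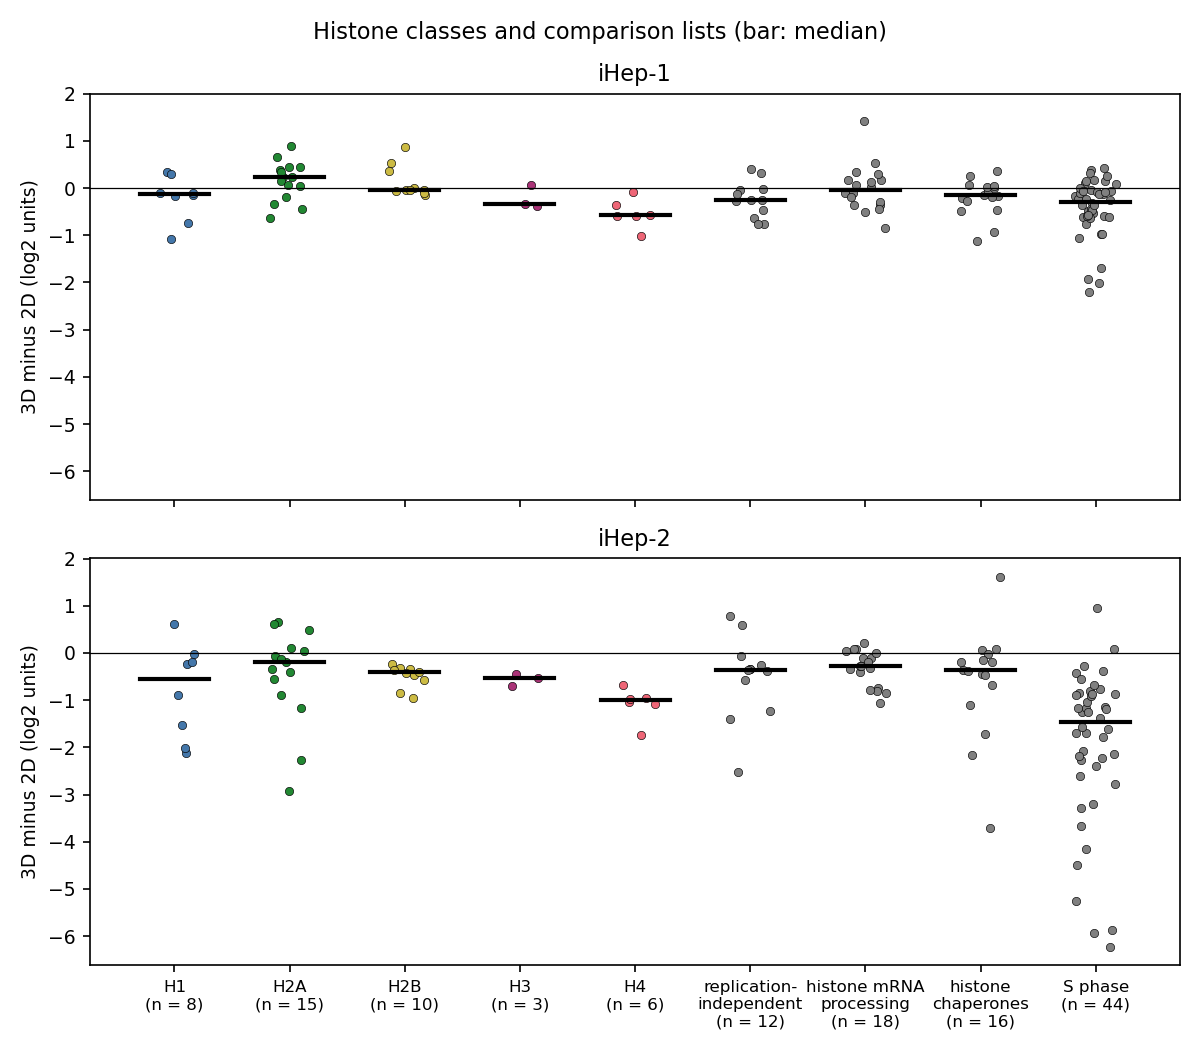
Each dot is a tested histone probe (classes H1 to H4, in colour) or a tested gene of a comparison list (grey), and the y axis is the 3D minus 2D difference in log2 units, in iHep-1 (upper panel) and iHep-2 (lower panel). Bars are medians. In iHep-1 the medians lie between -0.58 for H4 and 0.23 for H2A, and in iHep-2 between -1.47 for the S phase list and -0.19 for H2A.

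The histone probes also differed between the experiments. This comparison, iHep-2 minus iHep-1 with culture as a term of the limma fit, was chosen after the data were seen. Of 42 probes, 27 were lower in iHep-2 in both cultures (64.3%, against 34.7% of all probes) and 0 were higher in both (against 29.1%). At least 0.5 log2 units lower in both cultures were 24 probes (57.1%, against 11.0%). By limma with Benjamini-Hochberg adjustment, 0 histone probes were called in either direction, where 1.01% of all probes were called higher and 1.23% lower. At an unadjusted p under 0.05, 21 histone probes were lower (50%, against 9.6%) and 0 higher (against 7.87%). The H2B and H4 probes printed above were among the 21. They share sequence and cannot be counted as separate genes, so the shares of 64.3%, 57.1% and 50% count some readings more than once. The smallest adjusted p was 0.0662, for the Hist1h1e probe A_52_P67892. With other background corrections or scalings, 0 to 6 histone probes were called lower in iHep-2: 4 with no scaling, 6 with normexp background correction, 1 with spike-in scaling, and 0 with quantile normalization or with the authors' series table.

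H2B probes were lower in iHep-2 throughout. Their medians were -1.36 in 3D and -0.97 in 2D, against -0.02 and -0.05 for all probes, and all 10 tested H2B probes had negative values in both cultures. Some of the 10 share sequence, among them those printed above, and cannot be counted as separate genes. Hist3h2ba differed by -2.95 in 3D and by -1.64 in 2D (limma, adjusted p = 0.115). The H2B probes printed above differed by -1.27 and -0.96 for Hist1h2bk, -1.34 and -1.02 for Hist1h2bm and -1.37 and -0.99 for Hist3h2bb in 3D and 2D. H4 probes had medians of -1.08 in 3D and -0.64 in 2D, and H1 probes -1.12 and -0.68. The 3 H3 probes had medians of -0.05 in 3D and 0.05 in 2D, close to those of all probes, although Hist1h3a differed by -1.84 and -1.09. H2A medians changed sign by culture, at -0.68 in 3D and 0.25 in 2D. Relative to the median of all probes, these signs were the same with normexp background correction, quantile normalization and the authors' series table.

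In 2D the medians of the histone probes and of the S phase genes had opposite signs between experiments, though not in every histone class. In that culture the median of iHep-2 minus iHep-1 was 0.94 for the S phase list and -0.66 for the histone probes, where H2A was at 0.25 and H3 at 0.05. In 3D both were lower in iHep-2, at -0.49 for the S phase list and -1.09 for the histone probes. Of the 42 tested histone probes, 14 were higher in iHep-2 in 2D and lower in 3D (33.3%, against 16.5% of all probes), a count added after the values were seen. They were 9 of 15 H2A, 2 of 8 H1, 2 of 3 H3, 1 of 6 H4 and 0 of 10 H2B probes. The 5 with the highest values in 2D are given. In 2D, iHep-2 minus iHep-1 was 0.70 for Hist1h1b, 0.79 for Hist1h2ab, 0.80 for the Hist1h2af probe A_52_P498210, 0.55 for Hist1h2ak and 0.47 for Hist1h2ai. In 3D it was -1.26, -1.51, -1.03, -0.68 and -0.56 in the same order. The last 3 share sequence, so they may not be separate readings, although their values were not the same. The other 9 probes lay between 0.05 and 0.31 in 2D and between -0.71 and -0.04 in 3D.

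**Figure D4:**
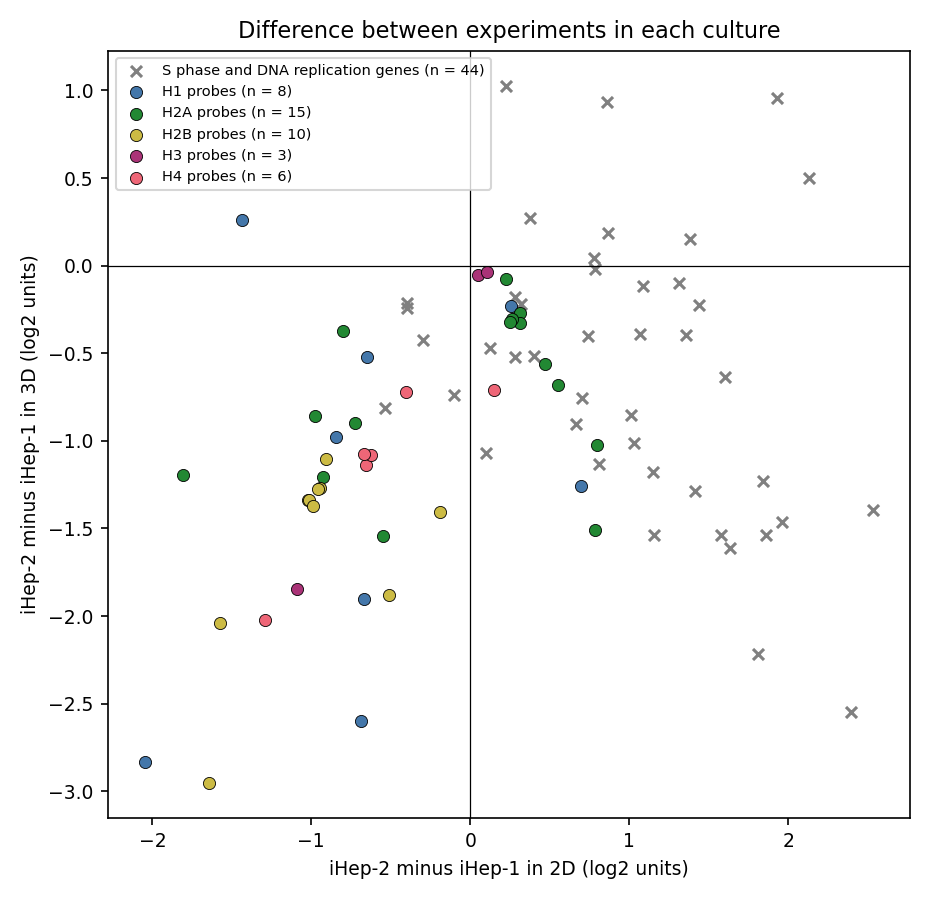
Each point is a tested histone probe, coloured by class, or a gene of the S phase list (grey cross), with the iHep-2 minus iHep-1 difference in log2 units in 2D on the x axis and in 3D on the y axis. Most histone points lie in the lower left, among them all 10 H2B points, and most S phase genes lie to the right of 0 on the x axis. Hist1h1b and the H2A probes at 0.47 to 0.80 on the x axis lie among the S phase genes.

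Promoters of the family were read from the RefSeq table of GRCm38.p6, 250 bases before to 50 bases after the start. All 35 gene names matched a current gene, and 29 of them had a promoter in the table, 30 promoters in all. The octamer ATTTGCAT, known as the site of the factor OCT1 in H2B promoters, was searched on both strands and found in 11 of 30 (36.7%), against 1.74% of 32851 promoters. It stood in 5 of 8 H2B and 6 of 10 H2A promoters and in none of the 12 promoters of H1, H3 and H4. The windows of Hist1h2ba and Hist1h2aa overlap and hold the same octamer, so the 11 promoters hold 10 distinct sites. CCAAT was in 28 of 30 (93.3%, against 37.4%) and TATAAA in 20 of 30 (66.7%, against 13.6%). These letters are a description of the windows, and binding was not measured. The promoters of Hist1h2bk and Hist1h2bm, whose probes cannot be told apart, are shown because they do differ. The 110 bases before each start are given with the octamer in capitals, at chr13:22035711-22035820 and chr13:21721934-21722043 (GRCm38.p6), both on the plus strand.
Hist1h2bk: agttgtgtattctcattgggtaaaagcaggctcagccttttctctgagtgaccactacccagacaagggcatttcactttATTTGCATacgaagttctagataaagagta
Hist1h2bm: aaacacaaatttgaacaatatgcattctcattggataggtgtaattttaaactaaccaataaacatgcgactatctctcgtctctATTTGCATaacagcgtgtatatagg

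The direction of the histone values was relative to the other probes of an array. The mean difference of the median histone probe lay 0.24 log2 units below that of the median probe. Spike-in scaling and no scaling shift all probes of an array together and cannot change this gap. The gap was 0.25 with normexp background correction, with quantile normalization and with the authors' series table. Scaling to spike-in controls placed the median of all probes itself at -1.10, and no scaling placed it at -0.22. Single arrays weighed heavily. Without 3D of iHep-2 the histone median of the mean difference was 0.24, and without 2D of iHep-1 it was 0.06, where with all 4 arrays it was -0.24. With an array left out, 1 array of a culture was set against 2 of the other, so the difference between experiments entered the value. Within single experiments, each a complete pair of arrays, the histone median was -0.06 in iHep-1 and -0.45 in iHep-2. Without 3D of iHep-2 the medians of H1 and H2B were also above 0, at 0.20 and 0.46, and that of H2B was 0.30 without 2D of iHep-1. The median of H4 was negative without any 1 array, from -1.33 to -0.25, as was that of H3, from -0.47 to -0.36. The dimness of the 3D iHep-2 array, given above, moved with these values, and its part in them was not tested.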

How the data were processed

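Total RNA was prepared with an RNeasy Micro kit and labelled with Cy3, using Agilent's Quick Amp reagents, per the labels' protocols. It was hybridised to 1-colour arrays of Agilent design 014868, 4 in all on 1 slide. The authors deposited scanner files of linear spot intensity, with processed signal, background and flags. Agilent Feature Extraction made them. Its version is 10.7.1.1 by the file headers, and the submitters' processing notes name 9.5.1.1. Probe positions are mm9 per the file headers. A series table of linear intensity, also from the authors, was an alternative, and its scaling is not stated.

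Levels are log2 processed signal after subtracting the log2 of the array's own 75th percentile, taken over noncontrol spots. Spots that the scanner software called nonuniform or outlying (72 to 85 an array) were left out. No spot was saturated. Arrays carry no counting depth, and their number limits the precision. Probes entered the test if 2 or more of the 4 arrays had them well above background, which left 24468. Limma 3.58.1 (lmFit and eBayes under R 4.3.3) gave two-sided tests of culture, with 2 residual and 1.70 prior degrees of freedom, Benjamini-Hochberg adjustment over all tested probes and a threshold of 0.05. The step was tested on simulated data. Its pass mark was set only at a spread smaller than that of these arrays, so it does not show the power of the test here.

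Replicate numbers mark the shared experiments iHep-1 and iHep-2 in the design text, and same-numbered deviations from the group means correlated across tested probes (r = 0.66). The fit with that block is therefore given beside the calls. Background correction, scaling (spike-in controls, quantile, none), filter, probe choice, trend with robust prior and each array left out were alternatives.

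Every member probe could be named, with the 4 smallest p of each comparison list and 10 fixed genes. The list genes were represented by their probe with the highest mean. Members and lists were chosen with earlier results of these data known. Python 3.11.15 made the tables.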

Additional observations from a re-analysis of the deposited data

Results flagged for a closer look

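In 6 histone probes, well above background on all 4 arrays, the 3D minus 2D difference had opposite signs in iHep-1 and iHep-2 and the gap was at least 1 log2 unit. The difference between experiments was not tested, since each has 1 array per culture.

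The linker histone probe A_52_P10683 of Hist1h1d differed by 0.3366 in iHep-1 and -0.8957 in iHep-2. Hist1h1t, the testis linker histone, was the 1 probe that ran the other way, with -1.0847 in iHep-1 and 0.6123 in iHep-2. In iHep-2 its intensities before scaling were nearly equal, 9.07 in 3D and 9.17 in 2D. Its levels there, -5.46 and -6.07, lay close to the lowest well above background on those arrays, -5.56 and -6.22. The H2A probes of Hist1h2ai and Hist1h2ak, which share a run of 26 bases, differed by 0.1458 and 0.06 in iHep-1 and by -0.8855 and -1.1717 in iHep-2. Of the H2B genes, Hist2h2be differed by 0.8701 in iHep-1 and -0.3426 in iHep-2, and Hist3h2ba by 0.358 and -0.9512. In 5 of the 6 probes the negative value was in iHep-2, where 3D was the dimmest array, and the part of that array in these values was not tested.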

How the results depend on the processing

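The call of 0 histone probes between cultures held under every alternative run, the replicate block (0 called, histone or other) included. All tested probes gave 3 calls higher with no scaling, and 97 higher and 320 lower with spike-in scaling, none of them a histone probe. The histone median was -1.34 with spike-in scaling, and -0.83 to 0.24 as each array was left out in turn. With an array left out, the difference between experiments enters the difference between cultures. With no scaling, the medians were -0.53 for replication-independent histone genes, -0.45 for the processing list and -0.47 for chaperones; with spike-in scaling they were -1.41, -1.33 and -1.35, and -2.01 for S phase genes. The replication-independent median was -0.41 to -0.14 as each array was left out. Histone probes with a negative difference in both experiments numbered 13 with no scaling and 39 with spike-in scaling; positive in both were 1 with no scaling, 2 with quantile normalization, 2 with the series table and 0 with spike-in scaling. Spike-in and absent scaling shift all probes of an array together; the cause of the other moves was not tested. Counts over both experiments could not be recomputed with an array left out, since each experiment has 1 array per culture. The count of histone probes lower in iHep-2 in both cultures was 21 to 27 under all settings run. Probes not well above background on every array, 5 of 42 tested here, carry the least certain values, as does Hist1h1t, which lay close to that limit.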
